A study of Mus musculus with 6 samples.

Results

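Hip1 and Gas7 are genes with long 3′ UTRs that carried many Argonaute (Ago) footprints in mouse macrophages. They were chosen by the number of footprints that the deposited table places on them, and every footprint that overlaps either gene on its own strand in GENCODE vM1 is described here, 16 on Hip1 and 17 on Gas7, together 33 of 6270. The number of footprints is therefore a description and not a result. The median over the 2222 genes with a footprint was 2, and 7 genes had more than Hip1 and 4 more than Gas7. Ago HITS-CLIP recovers RNA cross-linked to Ago proteins, here with the Ago antibody 2A8. Bone-marrow-derived macrophages came from APOBEC1-deficient mice (KO, 3 libraries) and from their wild-type littermates (WT, 3 libraries). All mice were C57BL/6 and 6 to 12 weeks old, and both genotypes were grown with M-CSF (20 ng/mL) and matured for 7 days. The labels call the mutant APOBEC1 KO and Apobec1-/- without naming the removed part of the gene. Per the labels, the mature cells of these cultures were checked for the macrophage surface markers F4/80 and Cd11b by flow cytometry. The authors combined the libraries of a genotype into 1 occupancy value per footprint, a ratio of footprint signal to the RNA-Seq expression of its transcript. There is thus no replicate value, no SD and no test of KO against WT, and the depth of the libraries is unknown.

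Hip1 (huntingtin-interacting protein 1) is an endocytic adaptor. It binds phosphoinositides, clathrin and the AP-2 complex, and it can link coated pits to actin. Gas7 (growth arrest-specific 7) has an F-BAR domain, which binds and bends membrane, and binds actin; it has been linked to neurite outgrowth and, in macrophages, to phagocytosis. Neither role was measured here. Ago proteins carry a miRNA whose bases 2 to 8, the seed, pair with a target mRNA, most often in its 3′ UTR, and APOBEC1 changes C to U in certain mRNAs, also in 3′ UTRs.

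Sites for 28 miRNA families, chosen as broadly expressed or known from blood cells, were searched in the footprints as a 7-nt match to the reverse complement of the seed. The sites are shown because they are the only link in these data between a footprint and a possible guide miRNA. In the lines that follow, the mature miRNAs (RefSeq, from the table of build GRCm38.p6) have their seed in capitals, with 1 member for each family that had a site.

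let-7a-5p: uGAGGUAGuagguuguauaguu

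miR-128-3p: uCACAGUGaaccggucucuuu

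miR-142a-3p: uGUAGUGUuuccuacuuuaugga

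miR-101a-3p: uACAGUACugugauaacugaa

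miR-27a-3p: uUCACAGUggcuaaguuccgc

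miR-125a-5p: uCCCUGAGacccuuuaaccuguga

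miR-181a-5p: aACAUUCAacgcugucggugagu

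miR-19b-3p: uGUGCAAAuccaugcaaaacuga

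miR-30a-5p: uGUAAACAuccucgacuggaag

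The target sites of Hip1 are given as 30 nt of its mRNA strand (minus strand, mm9), with the 7-nt match in capitals and footprints numbered from the stop codon. The coordinates are those of the match.

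Footprint 1, miR-128 match at chr5:135887015-135887021: ttctgtgacactcgctcccCACTGTGgcac

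Footprint 4, miR-142-3p match at chr5:135886139-135886145: gagccggtgtggaacagcaACACTACatcc

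Footprint 11, miR-101 match at chr5:135883555-135883561: atttaactggcttattgcaGTACTGTcccc

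Footprint 15, let-7 match at chr5:135882775-135882781: tgtttcaggtgaccctcaaCTACCTCaggt

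The target sites of Gas7 are given in the same way (plus strand, mm9).

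Footprint 2, let-7 match at chr11:67497552-67497558: tggagaggtcagaatggaaCTACCTCagtt

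Footprint 4, miR-27 match at chr11:67498410-67498416: caacctgtgctcagcatgaACTGTGAcatc

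Footprint 11, miR-181 match at chr11:67500798-67500804: agcaggaaggggcagcaacTGAATGTcact

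Footprint 11, miR-125 match at chr11:67500856-67500862: gtaaaagaagaccctctccCTCAGGGgact

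Footprint 12, miR-19 match at chr11:67501029-67501035: cttccctccccattgcctaTTTGCACccta

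Footprint 17, miR-181 match at chr11:67502240-67502246: cagaactcctcacccaggaTGAATGTgttt

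Footprint 17, miR-30 match at chr11:67502246-67502252: tcctcacccaggatgaatgTGTTTACtcca

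A site of a listed family was present in 4 of 16 Hip1 footprints and 5 of 17 Gas7 footprints, together 27.3%, against 21.1% of all 6270 footprints. The families let-7 (0.75% of all footprints) and miR-181 (1.18%) were each found in a pair of member footprints. The let-7 match occurred once in either gene, in both cases followed by an A opposite base 1 of the miRNA, the longest standard form of a site. The miR-142-3p match of Hip1 was also followed by an A. miR-142 is a miRNA of blood cells, and its match lay 2 nt from the centre of footprint 4. The miR-181 and miR-30 matches of Gas7 footprint 17 share 1 base. These matches are a description of the sequence and do not show which miRNA was bound.

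In Gas7 the 5 footprints with a site held 18.5% of the gene's summed occupancy in KO and 16.8% in WT. Their median occupancy (mean of both genotypes) was nevertheless higher than that of the 12 without, 0.205 against 0.137. The 12 without a site include the 3 strongest footprints, which hold more than 50% of the sum, and also the weakest (footprint 14, 0.0392). In Hip1 the 4 footprints with a site held 23.7% in KO and 26.6% in WT, with a median occupancy of 0.536 against 0.73 without. The median log2 ratio of KO over WT (below, with a pseudocount of 0.00161) was 0.30 over the 4 with a site and 0.55 over the 12 without in Hip1. In Gas7 it was -0.19 over 5 and 0.07 over 12. The AU-rich pentamer ATTTA, searched on the mRNA strand, was found in 3 Hip1 footprints (9, 10 and 11) and in 0 Gas7 footprints, against 11.9% of all footprints. The Pumilio motif TGTANATA was found in 0 footprints of either gene and in 3.81% of all.

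All 33 footprints lay in annotated 3′ UTR of the gene and overlapped no other gene on that strand. Hip1 (ENSMUSG00000039959.8) lies at chr5:135882393-136020992 on the minus strand, and the 3′ UTR behind its stop codon covers 135882393 to 135887086, a length of 4694 nt. Its footprints began right behind the stop codon, with centres from 47 to 4518 nt past it, and covered 26.8% of the UTR. Gas7 (ENSMUSG00000033066.9) lies at chr11:67268939-67502492 on the plus strand, with a longest 3′ UTR of 5539 nt from 67496954 to 67502492. Its footprints had centres from 392 to 5273 nt past the stop codon and covered 22.1% of that UTR.

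The annotation gives Gas7 shorter 3′ UTRs too, which share the stop codon and end 9, 103 and 1523 nt past it. Of the 17 footprints, 13 lay past the longest of these ends, so of these annotated forms only the one of 5539 nt holds them. The other 4 lie on sequence that the 1523 nt form also holds. Both annotated Hip1 transcripts end at the same base, and the second has another stop codon.

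The footprints were spread along both UTRs. Neighbouring centres were 71 to 904 nt apart in Hip1 (median 231 nt) and 127 to 512 nt apart in Gas7 (median 302 nt), where 281 nt was the median over the 98 genes with at least 10 footprints. Footprints 1 and 2 of Hip1 overlapped by 6 nt, and footprint 10 was its longest, with 199 nt. The others ran from 63 to 93 nt in both genes, against a median of 72 nt in the table. Per kb of 3′ UTR there were 3.41 footprints in Hip1 and 3.07 in Gas7, and 35 and 51 of the genes with at least 10 footprints were denser. The UTR length used was too short for some of these genes, such as 42 nt for Cdk14 with 12 footprints. Kctd12 had no UTR length and is not in these ranks. By the same UTR length, 27 of these genes exceeded Hip1 and 13 exceeded Gas7, with a median of 3821 nt. Both genes thus had long UTRs of a density close to the median of 3.13 per kb.

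**Figure D1:**
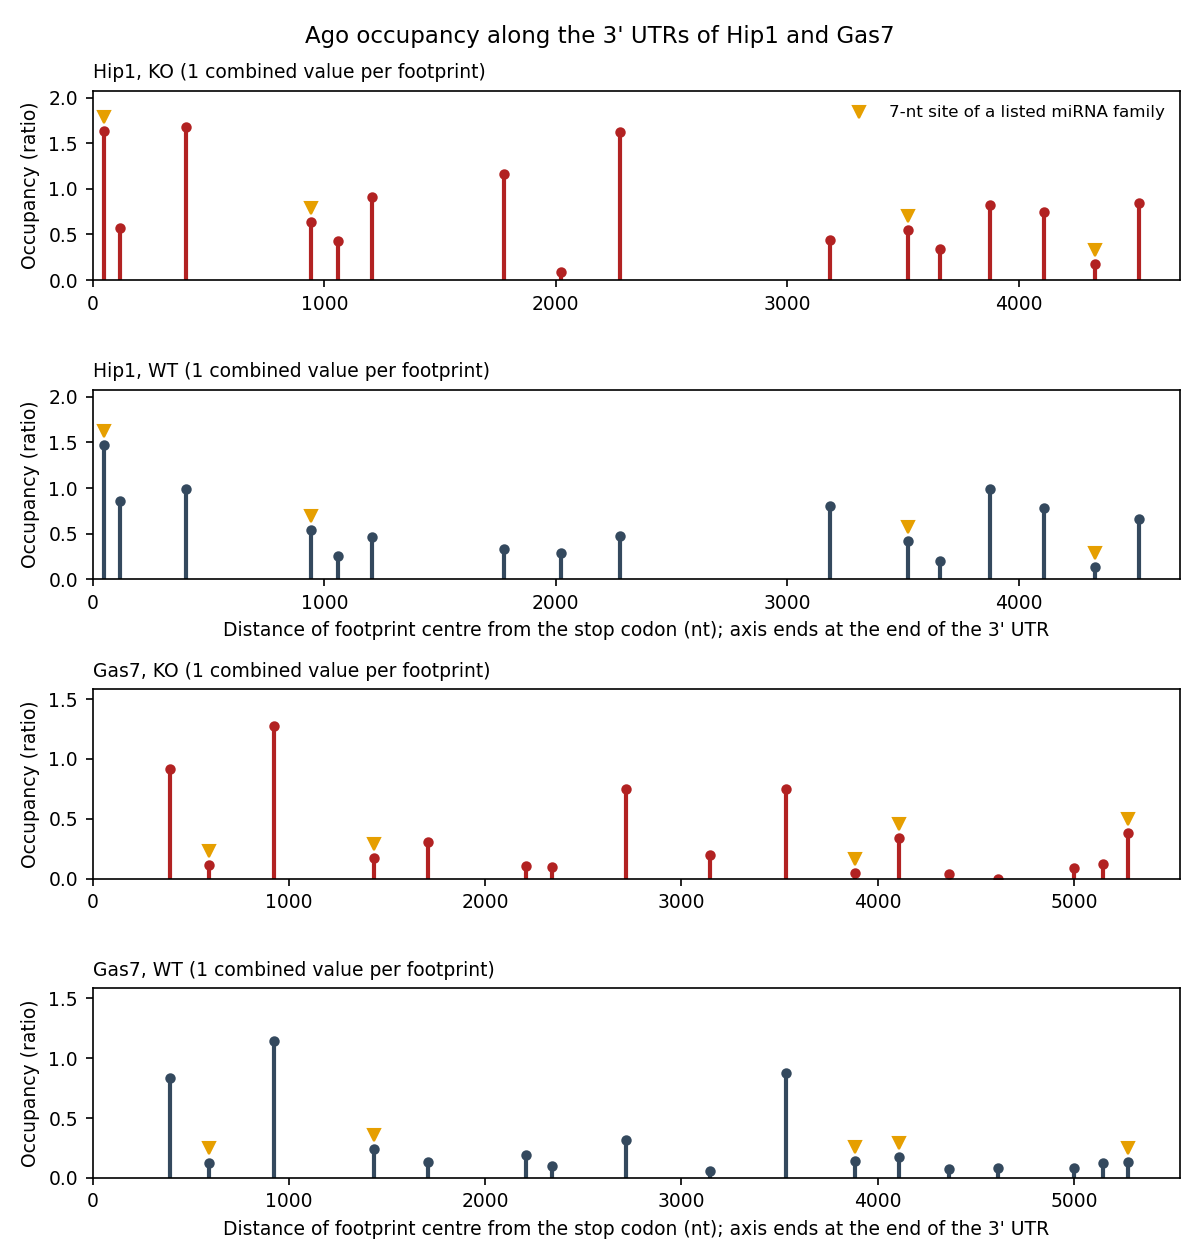
Ago occupancy (ratio of footprint signal to transcript expression, vertical axis) of each footprint against the distance of its centre from the stop codon in nt, with KO above WT for Hip1 and then for Gas7. Each line is 1 footprint with 1 combined value per genotype and no error bar, and a triangle marks a footprint with a 7-nt miRNA site. Hip1 footprints 7 and 9 stand out in KO (1.16 and 1.62, against 0.329 and 0.47 in WT), and Gas7 footprints 1, 3 and 10 are tall in both genotypes.

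Libraries are the only replicate information in the table, as the number of libraries of a genotype that held a footprint. At least 2 WT libraries held every one of the 33 footprints, as they did 94.9% of all footprints. At least 2 KO libraries held 13 of 16 Hip1 footprints (81.2%) and 9 of 17 Gas7 footprints (52.9%), where the share in the table was 40.1%. These same footprints were held by at least 2 libraries of both genotypes, against 35.0% of all footprints. Among the 98 genes with at least 10 footprints the median of the KO share was 46.4%, and 6 genes exceeded Hip1 and 38 exceeded Gas7. Hip1 footprint 1 and Gas7 footprint 10 were found in all 6 libraries, as were 5.89% of all footprints. No KO library held Hip1 footprint 8 or Gas7 footprint 14, as for 27.9% of all footprints.

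**Figure D2:**
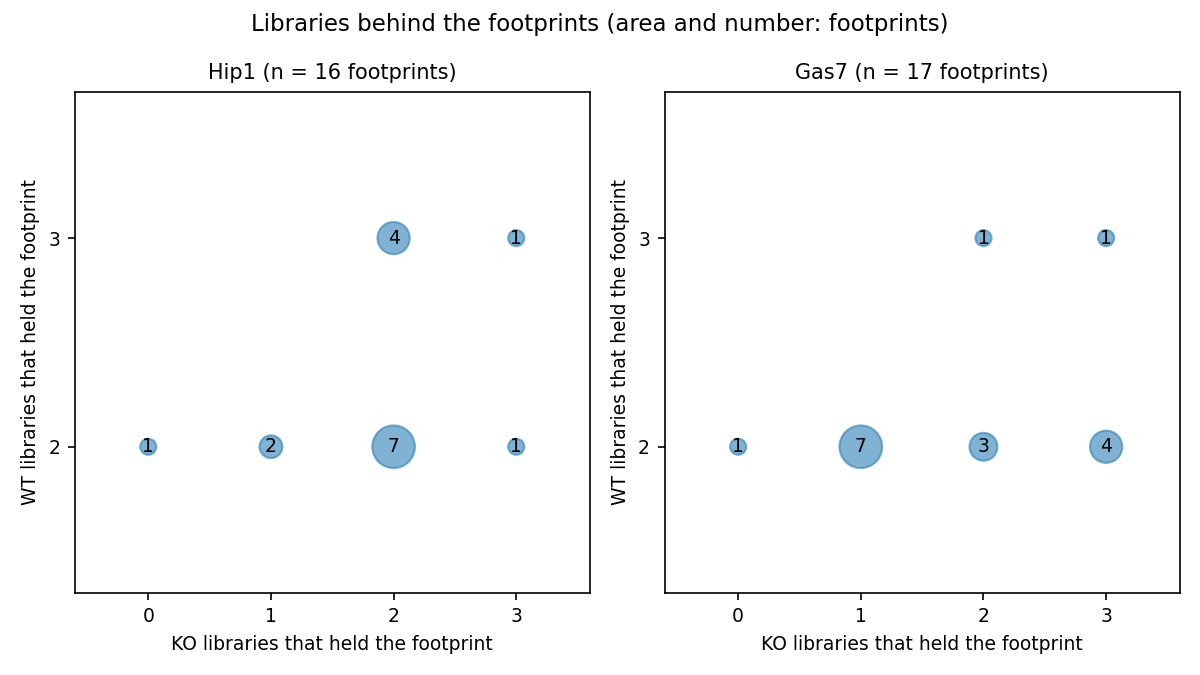
Number of KO libraries (horizontal axis) and of WT libraries (vertical axis) that held each footprint, with Hip1 on the left and Gas7 on the right. The area of a circle and the number in it give the footprints at that position. In Hip1, 7 footprints were held by 2 libraries of both genotypes, and in Gas7 7 were held by 1 KO and 2 WT libraries.

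The question behind the comparison of KO with WT is whether Ago occupancy of these UTRs differed in the absence of APOBEC1. Summed over its 16 footprints, Hip1 had an occupancy of 12.6 in KO and 9.62 in WT (log2 ratio 0.39). Gas7 had 5.69 in KO and 4.83 in WT over 17 footprints, a log2 ratio of 0.24. Both were higher in KO by less than 2-fold, and neither has a replicate check. Occupancy is divided by transcript expression, which is not shown here. A difference between genotypes in that divisor would shift all footprints of a gene alike. It cannot be told apart here from a difference in footprint signal. In a bulk sample, a larger share of cells with a bound transcript and more Ago per transcript cannot be told apart. Levels are not compared between Hip1 and Gas7, because the sources used here do not name the unit of the expression divisor.

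Of the 2222 genes with a footprint, 47.8% were higher in KO by any amount, and of the 98 with at least 10 footprints 66 were higher, with a median of 0.15. The ratio of Hip1 exceeded that of 76.5% of these 98 genes and the ratio of Gas7 that of 67.3%. Where each ratio was set against the median of footprints held by at least 2 libraries of both genotypes (0.42), both signs turned, to -0.032 for Hip1 and -0.19 for Gas7. By its construction that subset holds no footprint seen in fewer than 2 KO libraries, and which median is the better reference was not tested.

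**Figure D3:**
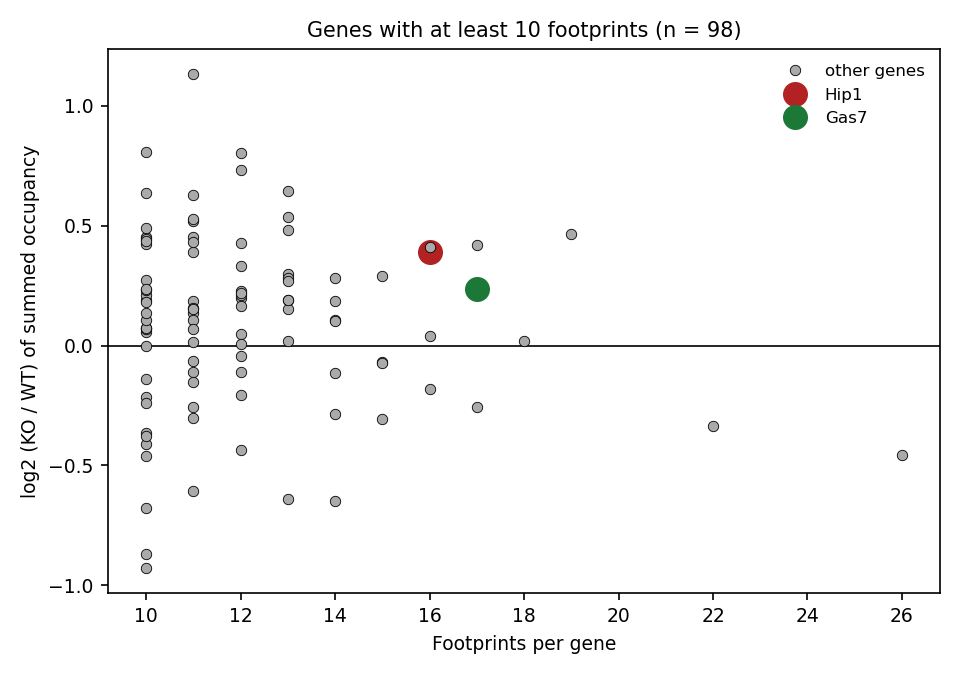
Log2 ratio of summed occupancy, KO over WT (vertical axis), against the number of footprints (horizontal axis) for the 98 genes with at least 10 footprints. Each point is 1 gene, with no error bar. Hip1 (16 footprints, 0.39) and Gas7 (17 footprints, 0.24) lie inside the range of genes with similar numbers of footprints, and the point on top of Hip1 is Plekhm3 (0.41).

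Single Hip1 footprints moved in both directions. The ratio was above 0 for 11 of 16 footprints, against 48.7% of all footprints. It reached 2-fold higher in KO for 2 (12.5%, against 18.9% of all footprints) and 2-fold lower for 1 (6.25%, against 24.2%). Set against 0.42, the median of the subset named above, 2 footprints were past 2-fold higher and 3 past 2-fold lower, where the shares of all footprints were 10.9% and 34.2%. The median log2 ratio was 0.36, where it was -0.04 over the table. Of the 11, 7 also exceeded 0.42, a count without a reference because no share of all footprints above 0.42 is given. Among the 13 footprints held by at least 2 libraries of both genotypes, 9 were higher in KO, where the share in that subset of the table was 68.5%. Of these 13, 2 were at least 2-fold higher and 0 at least 2-fold lower, where the shares were 26.2% and 5.01%. At least 2 WT libraries held all 16 Hip1 footprints, so the KO libraries alone set which 13 are counted here.

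The Hip1 footprints with the highest ratios lay next to each other but for 1, in the middle of the UTR. Footprint 7 (chr5:135885273-135885344) had an occupancy of 1.16 in KO and 0.329 in WT (log2 ratio 1.82). Footprint 9 (chr5:135884774-135884844) had 1.62 in KO and 0.47 in WT (log2 ratio 1.78). Both were held by 2 KO and 2 WT libraries, and neither held a site of a listed miRNA family. Between them, footprint 8 (chr5:135885027-135885102) went the other way, with 0.0882 in KO and 0.284 in WT (log2 ratio -1.67). It was held by 0 KO and 2 WT libraries, and the sources used here do not say how it came to have a KO value above 0.

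That KO value of footprint 8 stands at exactly the same figure on 2 footprints of the table. Values shared in this way were found for 3 Hip1 footprints in KO and 4 in WT, and for 0 Gas7 footprints above 0. The WT values of footprints 7 and 9 are among them, on 2 and 3 footprints of the table. The sources used here do not say how equal values came about, and their part in these ratios was not tested.

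The strongest Hip1 footprint by the mean of both genotypes was the one at the stop codon. Footprint 1 (chr5:135887007-135887073) had 1.63 in KO and 1.47 in WT (log2 ratio 0.15), and was held by 3 KO and 3 WT libraries. Its neighbour, footprint 2 (chr5:135886925-135887012), had 0.572 in KO and 0.856 in WT. The overlapping pair thus moved in opposite directions, by amounts below 2-fold. Footprint 3 (chr5:135886650-135886716) had the highest KO value of the gene, 1.67, against 0.986 in WT (log2 ratio 0.76).

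By the mean of both genotypes, the strongest footprints of the distal UTR were 13 and 14, both slightly lower in KO. Footprint 13 (chr5:135883170-135883251) had 0.827 in KO and 0.985 in WT, held by 3 KO and 2 WT libraries. Footprint 14 (chr5:135882945-135883015) had 0.743 in KO and 0.779 in WT. Footprint 16, with nearly the same mean as footprint 14, went the other way, with 0.84 in KO and 0.659 in WT (log2 ratio 0.35). The long footprint 10 (chr5:135883806-135884004) had 0.443 in KO and 0.802 in WT, with a log2 ratio of -0.85 the second lowest of the gene.

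Like footprint 1, the other Hip1 footprints with a miRNA site differed by less than 2-fold. Footprint 4 (chr5:135886112-135886175, miR-142-3p) had 0.636 in KO and 0.541 in WT. Footprint 11 (chr5:135883533-135883599, miR-101) had 0.544 in KO and 0.423 in WT. Footprint 15 (chr5:135882728-135882790, let-7) had 0.177 in KO and 0.131 in WT, the lowest WT value of the gene. All were slightly higher in KO, by log2 ratios of 0.23, 0.36 and 0.43. Footprints 5, 6, 12 and 16 were also higher in KO, with 0.337 to 0.907 in KO, 0.197 to 0.659 in WT and log2 ratios from 0.35 to 0.98.

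On the stop-codon side of the midpoint of the Hip1 UTR, 9 footprints summed to 8.72 in KO and 5.65 in WT (log2 ratio 0.63). On the distal side, 7 footprints summed to 3.91 in KO and 3.98 in WT (log2 ratio -0.02). The median log2 ratio of these 7 was 0.35, and 4 were higher in KO. The split rests on footprint 9, whose centre lies at 48.5% of the UTR. With it on the distal side, the distal sums were 5.53 in KO and 4.45 in WT (log2 ratio 0.32), and those of the stop-codon side 7.10 in KO and 5.18 in WT (log2 ratio 0.45). The midpoint was set after the values were seen, and over single footprints the Spearman correlation of distance and ratio was -0.03 (n = 16 footprints of 1 transcript, a description). The 5 footprints with the highest mean held 51.4% of the gene's sum in KO and 48.7% in WT.

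Gas7 was more uneven along its UTR, and its strong footprints were nearly equal in the genotypes. Its 3 strongest footprints held 51.7% of the sum in KO and 59.1% in WT, where the 3 strongest of Hip1 held 39.0% in KO and 30.4% in WT. Footprint 3 (chr11:67497840-67497913) had 1.28 in KO and 1.14 in WT, footprint 1 (chr11:67497312-67497378) had 0.913 in KO and 0.836 in WT, and footprint 10 (chr11:67500453-67500515) had 0.753 in KO and 0.88 in WT. Their log2 ratios were 0.16, 0.13 and -0.22. They were held by 2, 3 and 3 KO libraries and by 3, 2 and 3 WT libraries, and none held a site of a listed miRNA family.

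The larger ratios of Gas7 were found outside its 3 strongest footprints. A log2 ratio of at least 1 was reached by 5 of 17 (29.4%, against 18.9% of all footprints), and of at most -1 by 2 (11.8%, against 24.2%). The 2 include footprint 14, which was listed at 0 in KO. Set against 0.42 the balance turned round, with 2 past 2-fold higher (footprints 9 and 17) and 4 past 2-fold lower (footprints 6, 11, 13 and 14), where the shares of all footprints were again 10.9% and 34.2%. Above 0 were 9 and below it 8, with a median of 0.01. Of the 9, 5 also exceeded 0.42, again without a share of all footprints as a reference. Among the 9 footprints held by at least 2 libraries of both genotypes, 7 were higher in KO, 5 of them by at least 2-fold and 0 lower by that fold. In that subset of the table the shares were 68.5%, 26.2% and 5.01%. At least 2 WT libraries held all 17 Gas7 footprints, so the KO libraries alone set which 9 are counted here.

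Footprint 8 (chr11:67499638-67499701) was the strongest of those past 2-fold, with 0.75 in KO and 0.32 in WT (log2 ratio 1.22). Footprint 9 (chr11:67500063-67500139) had 0.196 in KO and 0.0608 in WT, and its log2 ratio of 1.67 was the highest of the gene. Both were held by 3 KO and 2 WT libraries. Footprint 12 (chr11:67501027-67501093, with a miR-19 site) had 0.343 in KO and 0.171 in WT (log2 ratio 1.00) and also 3 KO and 2 WT libraries.

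Footprint 17, the last before the end of the UTR (chr11:67502194-67502258, with the overlapping miR-181 and miR-30 sites), had 0.384 in KO and 0.129 in WT (log2 ratio 1.56). Footprint 5 (chr11:67498630-67498696) had 0.305 in KO and 0.136 in WT (log2 ratio 1.16). Both were held by 2 KO and 2 WT libraries. All 5 footprints past 2-fold higher lay past the end of the 1523 nt UTR form, as did 13 of all 17 Gas7 footprints. Both footprints past 2-fold lower (11 and 14) lay there too.

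The footprints with the lowest ratios were weak in both genotypes and were held by at most 1 KO library. Footprints 5, 9, 12 and 17, past 2-fold higher, had low occupancy too, with means of 0.129 to 0.257 against a table median of 0.425. That median spans genes with different expression divisors, so it ranks occupancy ratios and not footprint signal. The WT value of footprint 9 (0.0608) was the lowest of the gene. Footprint 14 (chr11:67501528-67501607) was listed at 0 in KO, as were 4.63% of all footprints, and had 0.0785 in WT, so no fold is given for it. Footprint 11 (chr11:67500791-67500883, with sites for miR-181 and miR-125) had 0.0448 in KO and 0.144 in WT (log2 ratio -1.65). Footprint 13 (chr11:67501283-67501354) had 0.0375 in KO and 0.0737 in WT (log2 ratio -0.95). Both were held by 1 KO and 2 WT libraries.

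The other Gas7 footprints with a site were lower in KO by less than 2-fold. Footprint 2 (chr11:67497514-67497578, let-7) had 0.112 in KO and 0.128 in WT. Footprint 4 (chr11:67498356-67498421, miR-27) had 0.171 in KO and 0.24 in WT. The let-7 footprint of Gas7 thus had a log2 ratio of -0.19, and that of Hip1 0.43, both held by 1 KO and 2 WT libraries. Footprints 6, 7, 15 and 16, each held by 1 KO library, had 0.0881 to 0.124 in KO and 0.0786 to 0.191 in WT, with log2 ratios from -0.90 to 0.16.

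**Figure D4:**
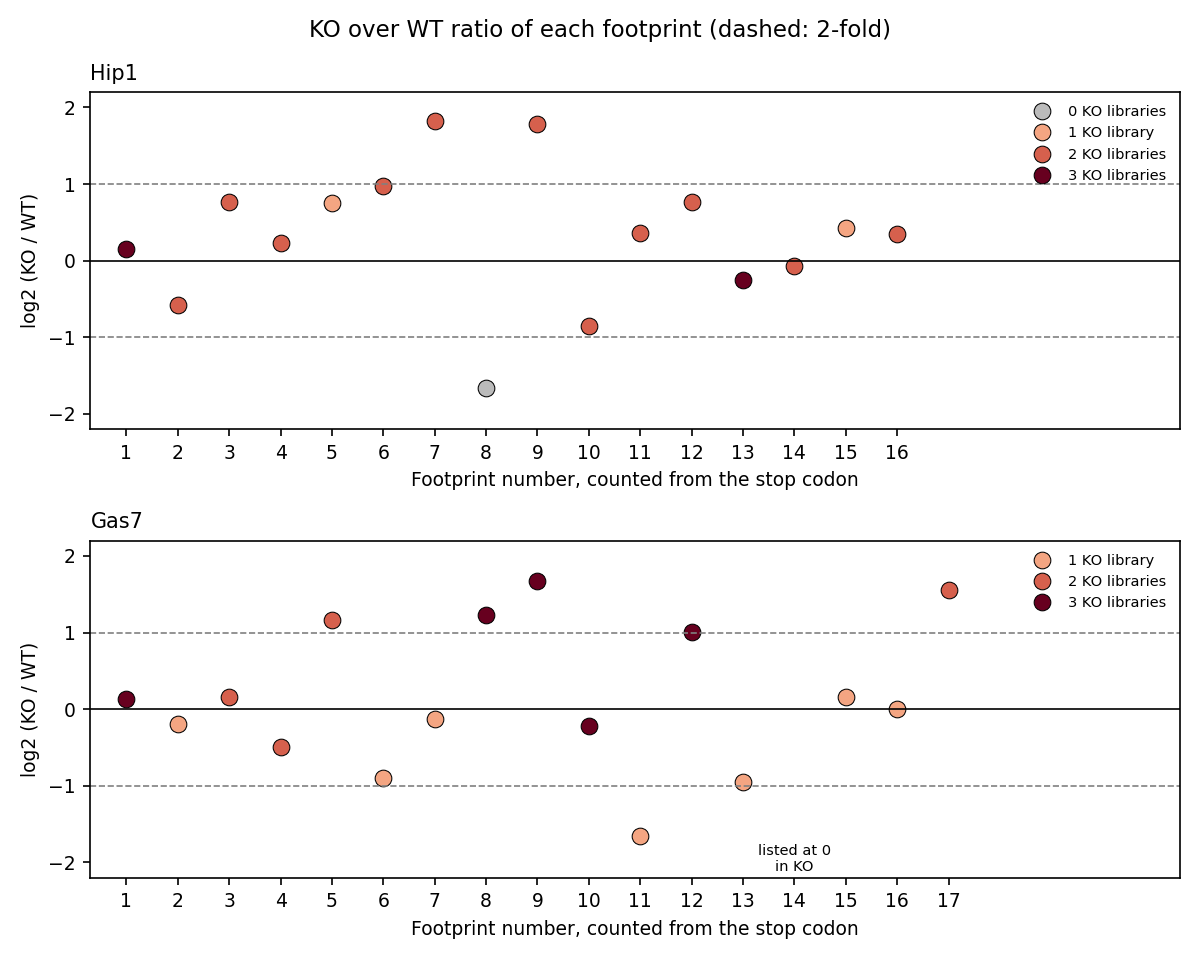
Log2 ratio of KO over WT (vertical axis) for each footprint in order from the stop codon (horizontal axis), Hip1 above and Gas7 below. The colour gives the number of KO libraries that held the footprint, and dashed lines mark 2-fold; each point is 1 combined value with no error bar. In Gas7 the 5 points at or above the upper line were held by 2 or 3 KO libraries and the points below -0.5 by 1, with footprint 14, listed at 0 in KO, marked in words.

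The KO and WT values of the footprints had a Spearman correlation of 0.64 in Hip1 (n = 16) and 0.73 in Gas7 (n = 17), against 0.61 over the table. The order of strong and weak footprints along a UTR was thus broadly shared by the genotypes. The number of KO libraries and the ratio had a correlation of 0.64 in Gas7 and -0.04 in Hip1; both quantities come from the same KO reads. G+C content, which had a correlation of 0.32 with the ratio over all 6270 footprints, had -0.01 in Hip1 (32.4% to 54.7%, median 46.1%) and 0.04 in Gas7 (42.9% to 57.8%, median 49.3%). These are descriptions over footprints of 1 transcript, which share its expression value and its libraries.

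Other genes of clathrin endocytosis lay on both sides of 0. Of 54 listed genes for clathrin adaptors and accessory proteins 20 had a footprint, 74 footprints in all. By summed occupancy 9 were higher in KO (45.0%, against 47.8% of all genes) and 11 lower, with a median of -0.09 where the median over all genes was -0.04. Of the 9, 6 also exceeded 0.42, which is a median of footprints and not of genes. No share of all genes above 0.42 is given, here or for the lists below. Past 2-fold were 1 higher (5.00%, against 11.7% of all genes) and 4 lower (20.0%, against 17.9%).

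Bin1, an amphiphysin that bends membrane, was the gene past 2-fold higher, with 0.177 in KO and 0.0821 in WT (1.10) on 1 footprint, which no WT library held. Sh3gl1, an endophilin, followed with 1.97 in KO and 1.00 in WT (0.97), and at most 1 WT library held any of its 3 footprints. The lowest were Sh3kbp1, an adaptor of receptor uptake, with 0.0607 in KO and 0.401 in WT (-2.69), and the kinase gene Bmp2k with 0.612 in KO and 2.85 in WT (-2.22). No KO library held a footprint of Sh3kbp1 or Bmp2k.

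The list members with most footprints were nearer to equal. Arrb1, a beta-arrestin that takes receptors to clathrin, had 13 footprints with 4.91 in KO and 4.30 in WT (0.19, below 0.42). Necap1, which binds AP-2, had 7 with 8.73 in KO and 10.7 in WT (-0.30), and 1 of its 7 footprints was higher in KO.

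Of 22 listed genes for F-BAR proteins besides Gas7, 6 had a footprint. In KO 2 were higher (33.3%, against 47.8% of all genes) and 4 lower, with a median of -0.10. Past 2-fold were 0 higher (against 11.7% of all genes) and 1 lower (16.7%, against 17.9%). Fnbp1l, which links membrane curvature to actin assembly, had 11 footprints with 12.8 in KO and 14.3 in WT (-0.15). Fnbp1 had 8 with 3.01 in KO and 3.10 in WT (-0.04). The higher ones were Srgap2, with 6.35 in KO and 5.58 in WT (0.19), and Gmip, with 0.289 in KO and 0.271 in WT (0.09), both below 0.42. The lowest were Fcho2, an early clathrin pit protein, with 4.40 in KO and 6.21 in WT (-0.50), and Pacsin2, with 0.134 in KO and 0.586 in WT (-2.11). No KO library held the single footprint of Pacsin2.

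Of 14 genes listed as reported partners of Hip1 or Gas7, 3 had a footprint. The clathrin heavy chain gene Cltc had 0.897 in KO and 1.35 in WT (-0.59) on 2 footprints, and the light chain gene Clta had 0.0553 in KO and 0.0371 in WT (0.56) on 1. Actb, beta-actin, had 1.66 in KO and 1.16 in WT (0.51) on 4. The 2 higher ones (66.7%, against 47.8% of all genes) both exceeded 0.42, for which no share of all genes is given. None of the 3 was past 2-fold, where 11.7% of all genes were higher and 17.9% lower by that fold.

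The genes most like Hip1 by their ratio of summed occupancy, among 45 genes with a footprint number within 4 of it, were Plekhm3 (0.41, 16 footprints), Gnaq (0.42, 17 footprints) and Cdk14 (0.43, 12 footprints). Those most like Gas7, among 30, were Tgfbr1 (0.27, 13 footprints), Cd93 (0.28, 14 footprints) and Tbl1xr1 (0.19, 13 footprints). The likeness rests on 1 ratio per gene from 2 genotypes.

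For the series as a whole, Apobec1 had 3 footprints with a summed occupancy of 0.312 in KO and 0.372 in WT. These lie in its 3′ UTR and do not check the genotype, since the labels do not name the removed part. Of 9 macrophage marker genes 7 had a footprint, among them Csf1r, Itgam and Emr1, which encodes F4/80, while Cd68 and Mertk had none. Of the listed markers of T or B cells (7), neutrophils (5), stromal fibroblasts (4) and dendritic cells (3), 0 had one. Only 2222 genes had a footprint, and their share of all annotated genes is not given, so these counts do not check the purity of the cultures.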

How the data were processed

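The table comes from Ago HITS-CLIP of macrophages, with 3 KO and 3 WT libraries; the labels name 3 littermate pairs of mice and do not tie a library to an animal. The authors deposited occupancy as a ratio, footprint signal over RNA-Seq transcript expression, per the labels' design text; reads were aligned to mm9, and the submitters' processing notes list Bowtie 0.12.8 and bedtools. The sources used here do not say how libraries were combined and scaled. Depth per library is unknown, so no counting interval is given.

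Footprints were placed on NCBIM37 (the mm9 assembly) with GENCODE vM1 by overlap of at least 1 nt on the strand in their identifier, and coordinates count from 1. For all genes, a footprint went to the gene of the first class it overlapped (3′ UTR, then coding, 5′ UTR, other exon and intron). Log2 ratios used a pseudocount of 0.00161, 50% of the smallest value above 0, and understate low footprints. A 2-fold rule stood in for a test. The UTR length of a gene is that of its longest unspliced 3′ UTR. Sequences were read with pysam 0.24.0. The ratios and the site search were tested on simulated data. Named in full were, per gene, the 5 strongest footprints, the 2 highest and 2 lowest ratios, those listed at 0 and those with a site; from each list the 2 highest, the 2 lowest and the 2 genes with most footprints. Hip1 footprints 2 (overlapping) and 16 (strong in the distal UTR) and Gas7 footprint 5 (past 2-fold) were named after their values were seen. The genes, the lists of genes and the miRNA families were chosen with earlier results of these data known. Other pseudocounts, subsets, centrings and site definitions were tried.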

Additional observations from a re-analysis of the deposited data

How the results depend on the processing

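The summed ratios of Hip1 and Gas7 stayed above 0 under every alternative tried except 1, but several of these could not turn the sign. A pseudocount is added to both genotypes alike, all member footprints lie in 3′ UTR, and the median of all footprints is itself below 0 (-0.04). Leaving out the footprint listed at 0 in KO can only raise the ratio. In Hip1 the values ran from 0.15 (strongest footprint alone) to 0.43 (centred on the median of all footprints). In Gas7 they ran from 0.01 (median over single footprints) to 0.38 (footprints held by at least 2 libraries of both genotypes). Centring on the median of footprints held by at least 2 libraries of both genotypes turned them to -0.032 in Hip1 and -0.19 in Gas7, and left 12 of the 20 member footprints that were higher in KO above 0. Under it 2 footprints were past 2-fold higher and 3 past 2-fold lower in Hip1, and 2 higher and 4 lower in Gas7, so that the excess of higher over lower turned round in both genes (this count was added after the data were seen). Counts past 2-fold, which rest on few footprints, moved more. With a pseudocount of 1 in place of 0.00161 all were 0 (2 higher and 1 lower in Hip1, 5 higher and 2 lower in Gas7 as reported). A pseudocount of 1 exceeds the table medians of 0.377 in KO and 0.406 in WT, so this drop follows from the scale of the values. With that pseudocount the 32 member footprints above 0 in both genotypes kept their sign, which adding the same amount to both values cannot change. With a fold of 1.5 the counts were 6 higher and 2 lower in Hip1, and 5 higher and 4 lower in Gas7. Among the 16 member footprints whose mean reached the table median, 2 of Hip1 and 1 of Gas7 were past 2-fold higher, and 0 lower in either gene. No share of all footprints is given for that fold, for that subset or for ratios above 0 after the centring. These counts and the 12 of 20 thus stand without a reference. With footprints held by at least 2 libraries of both genotypes, which in both genes the KO libraries alone set, 0 were lower in either gene. With those above 0 in both genotypes 1 was lower in Gas7. A 6-nt site was found in 11 Hip1 and 9 Gas7 footprints (52.0% of all footprints), and a 7-nt site or a 6-nt site followed by A in 7 Hip1 footprints (31.7% of all). The causes were not tested. No paired analysis was possible because the table holds 1 combined value per genotype, and for the same reason no library could be left out.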
